A study of Homo sapiens with 12 samples.

Results

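Small nuclear RNAs are short noncoding RNAs that work in the nucleus as parts of RNA-protein particles. U4 and U5 belong to the tri-snRNP of the major spliceosome, in which U4 keeps U6 inactive until splicing starts and U5 holds the exon ends together. U11, U12, U4atac and U6atac do the corresponding work in the minor spliceosome, which removes a rare class of introns, while 7SK holds the elongation kinase P-TEFb inactive and RMRP is the RNA of RNase MRP, an enzyme of ribosomal RNA processing. Uridines in many of these RNAs are converted to pseudouridine under the guidance of H/ACA particles, whose assembly needs SHQ1.

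The RNAs described here were the 10 genes RNU4-1, RNU4-2, RNU5A-1, RNU5B-1, RNU11, RNU12, RNU4ATAC, RNU6ATAC, RN7SK and RMRP, out of 58288 genes listed. A row was taken for a gene if its Ensembl identifier carried the symbol or if both of its ends lay within 10 bases of the RefSeq gene on GRCh38, and where several rows met this rule the one with the highest average level was kept. This gave 13 rows for the 10 genes. RNU11, RN7SK and RMRP each had a second row over nearly the same bases, which held nearly the same counts. Whether a read over several rows was counted in full in each or shared between them is not given in the sources used here. If it was shared, the row kept holds only a part of the reads of its gene. The levels below are those of the rows kept. RNU11 (ENSG00000274978.1) and RNU12 (ENSG00000276027.1) were found by position alone, and so was the row kept for RMRP (ENSG00000269900.3).

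RNA-Seq was performed on HPB-ALL and KOPTK1, established human T-cell acute lymphoblastic leukemia (T-ALL) lines. Each line was infected with lentivirus carrying an shRNA against SHQ1 or, as the control, against GFP, kept under 2 μg/ml puromycin for 48 h by the labels, and depleted of ribosomal RNA before library construction. The labels give 3 libraries for each of the 4 groups (HPB-ALL Control, HPB-ALL shSHQ1, KOPTK1 Control and KOPTK1 shSHQ1), 12 in all, and do not say whether replicates were separate infections, so p-values measure only the spread between these libraries. The labels name no clone, and all 4 groups share the virus and the drug. The columns of the tables carry numbers only, 7 to 12 for HPB-ALL and 1 to 6 for KOPTK1, which match no label of a replicate or an shRNA. Each library could therefore be given to its line but not to its shRNA group. Knockdown was not compared with control here, and the comparison made was that of the lines, over all 6 libraries of each. By the labels these 6 hold 3 control and 3 shSHQ1 libraries, so the spread within a line includes any effect of the shRNA.

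Library totals ranged from 36792076 to 42842791 counts in HPB-ALL and from 22884785 to 36098045 in KOPTK1. Every KOPTK1 library was thus shallower than every HPB-ALL library, and the part of depth in the differences between the lines was not tested. The 10 T-lineage markers examined all reached 1 CPM (1 count in 1000000 of the library) in both lines, and their summed level was 1676 to 1779 CPM in HPB-ALL and 1681 to 1727 CPM in KOPTK1. None of 3 myeloid markers reached 1 CPM in either line. Of 3 B-cell markers, 1 did so in HPB-ALL and 2 in KOPTK1, and their sum was 51.8 to 58.5 CPM in HPB-ALL and 10.4 to 33.3 CPM in KOPTK1. Most of it was CD79A, with medians of 54.2 and 19.6 CPM, while MS4A1 was at 0.118 and 0.253 CPM. Of 3 markers each, 1 erythroid marker reached 1 CPM in HPB-ALL and none in KOPTK1, and 1 epithelial and 1 fibroblast marker did in both lines. The part of any of these in the differences between the lines was not tested. The KOPTK1 libraries stood apart in 2 sets: over 13992 genes, the correlation of log2 levels with the mean of HPB-ALL was 0.948 to 0.949 for the libraries headed 1, 2 and 3 and 0.876 to 0.877 for those headed 4, 5 and 6. The HPB-ALL libraries also fell in 2 sets, closer together, with correlations with the mean of KOPTK1 of 0.908 to 0.910 for those headed 7, 8 and 9 and of 0.925 for those headed 10, 11 and 12. The difference of each RNA tested is given below without each KOPTK1 set, and their counts and the gene lists without each set of either line.

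The U4 genes come as near-identical copies, so reads from one can be assigned to the other. The transcripts of RNU4-1 (chr12:120293097-120293237, minus strand, GRCh38) and RNU4-2 (chr12:120291763-120291903, minus strand) are both 141 bases long and share 97.2% of them, with 50 bases in the longest identical run. They are shown 5′ to 3′ as DNA, with the differing bases in capitals. From RNU4-1 to RNU4-2, counted from the first base, these are C37T, G88A, C99A and C113T.
RNU4-1: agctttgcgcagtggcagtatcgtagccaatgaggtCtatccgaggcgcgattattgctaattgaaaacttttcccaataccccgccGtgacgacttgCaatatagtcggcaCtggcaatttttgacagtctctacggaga
RNU4-2: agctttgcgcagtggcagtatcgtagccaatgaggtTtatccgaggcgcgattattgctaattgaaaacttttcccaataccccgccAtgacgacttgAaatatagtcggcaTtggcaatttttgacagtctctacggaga

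RNU5A-1 and RNU5B-1 lie on chromosome 15, on the plus strand, and their rows are both 116 bases long.

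Genes for the minor spliceosome lie on separate chromosomes. RNU11 is at chr1:28648600-28648733 (plus strand), RNU12 at chr22:42615244-42615393 (plus strand) and RNU4ATAC at chr2:121530881-121531007 (plus strand), inside the span of CLASP1 on the opposite strand. The letters AATTTTTG or AATTTTTTG, which have the form of the site bound by the ring of Sm proteins, were searched on the transcript strand and are in capitals below. Of the 8 RNAs searched, 6 are 100 to 200 bases long, and one or the other was found in 5 of these 6, namely both U4, U11, U12 and U4atac, and in 1.59% of the 6409 annotated transcripts of that length. Neither was found in U6atac, or in 7SK and RMRP, which are longer. The U11 sequence is that of the second, nested row of 131 bases, and the U12 sequence is the first 150 bases of a longer transcript that starts at the same base.
RNU11: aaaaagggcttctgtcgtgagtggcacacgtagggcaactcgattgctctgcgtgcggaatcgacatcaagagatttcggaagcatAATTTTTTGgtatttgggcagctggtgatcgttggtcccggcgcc
RNU12: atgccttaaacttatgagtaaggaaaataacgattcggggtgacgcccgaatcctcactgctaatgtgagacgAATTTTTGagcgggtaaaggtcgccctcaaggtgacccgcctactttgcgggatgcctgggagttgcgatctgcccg
RNU4ATAC: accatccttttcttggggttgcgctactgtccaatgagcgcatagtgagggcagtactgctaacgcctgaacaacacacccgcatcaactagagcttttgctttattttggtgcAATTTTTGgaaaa

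The remaining genes are RNU6ATAC (chr9:134164439-134164564, minus strand), RN7SK (chr6:52995620-52995950, plus strand) and RMRP (chr9:35657751-35658018, minus strand).

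7SK and RMRP made up nearly all reads of these genes, and the spliceosomal RNAs each stood at a few CPM or less. Over the 10 genes the summed level was 176 to 208 CPM in HPB-ALL (median 206) and 260 to 387 CPM in KOPTK1 (median 308). RN7SK took 74.0 to 75.3% of this sum in HPB-ALL and 76.8 to 78.9% in KOPTK1, and RMRP took 21.0 to 22.1% and 16.1 to 18%. The 8 spliceosomal RNAs together reached 6.01 to 8.29 CPM in HPB-ALL (median 7.5) and 11.2 to 18.9 CPM in KOPTK1 (median 15.7). By the study's methods, reads were paired-end and 150 bases long. The rows of these 8 RNAs are 116 to 150 bases long, against 268 for RMRP and 331 for RN7SK. Loss of such short RNAs in library construction was not tested, so the levels are not read as amounts in the cells. In bulk samples, a difference in the number of cells of a type and one in RNA per cell cannot be told apart.

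Per length (RPKM, the CPM per kilobase of annotated exon), the order in HPB-ALL was RN7SK, RMRP, RNU11, RNU4ATAC, RNU12, RNU4-2, RNU5B-1, RNU4-1, RNU5A-1 and RNU6ATAC. In KOPTK1, RNU4-2 moved from the sixth to the third place. The library ranges of RN7SK and RMRP did not overlap each other or those of any other of the 10 RNAs in either line. From RNU11 down to RNU4-2 in HPB-ALL, the ranges of neighbours overlapped, as did those of RNU5B-1, RNU4-1 and RNU5A-1. In KOPTK1 the ranges of RNU4-2 and RNU11 overlapped, and so did those of each neighbouring pair from RNU5B-1 through RNU4ATAC, RNU12 and RNU5A-1 to RNU4-1.

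**Figure D1:**
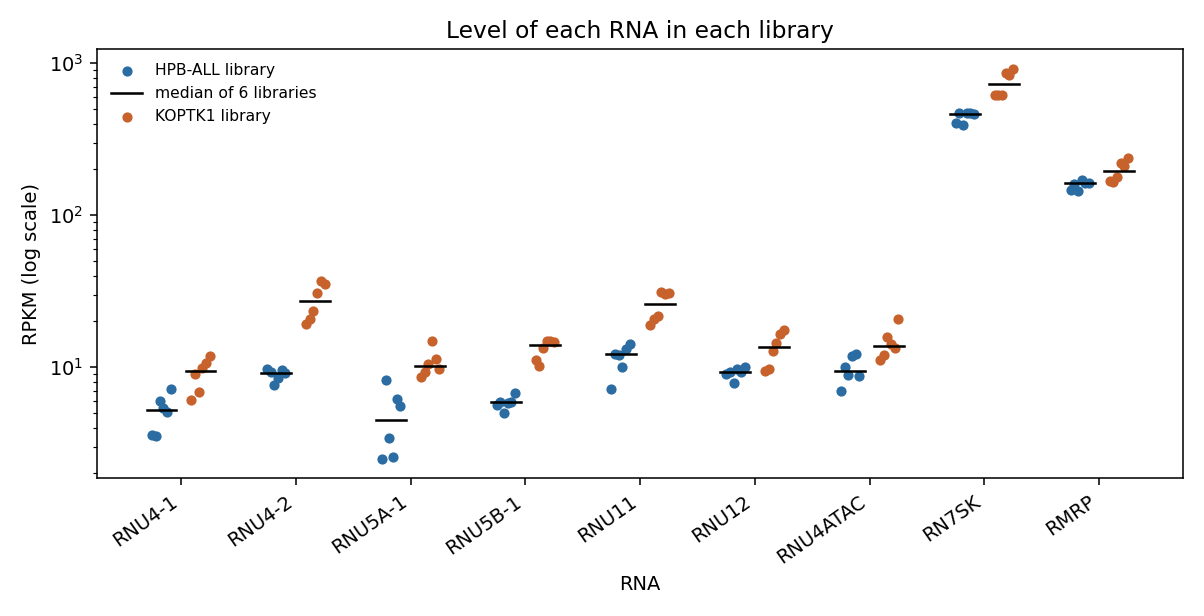
RPKM on a log scale of the 9 RNAs at or above the minimum in each of the 6 HPB-ALL libraries (blue) and 6 KOPTK1 libraries (orange), with a black line at the median of 6 libraries. RN7SK and RMRP lie far above the spliceosomal RNAs, and for RNU4-2, RNU5A-1, RNU5B-1, RNU11 and RN7SK every KOPTK1 library lies above every HPB-ALL library.

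A mean of 1 RPKM in both lines was reached by 9 of the 10 RNAs, and 9 of these 9 were higher in KOPTK1 at an adjusted p under 0.05 (edgeR quasi-likelihood test over 21455 genes, Benjamini-Hochberg adjustment). None was higher in HPB-ALL, and the remaining RNA, RNU6ATAC, was below the minimum. Before division by library totals, the counts of RN7SK, RNU4-2, RNU5B-1 and RNU11 were also higher in every KOPTK1 library. Those of RMRP, RNU12, RNU4ATAC, RNU4-1 and RNU5A-1 overlapped, with RMRP at 1629 to 1844 counts in HPB-ALL and 1457.5 to 1736 in KOPTK1. The share of all genes was not computed for such counts. Among all genes tested 63.7% were called in either direction and 31.6% as higher in KOPTK1, and among the 5029 genes of at most 500 bases 26.7% were. The log2 difference in level (KOPTK1 minus HPB-ALL) had a median of 0.80 over the 9 RNAs and a range of 0.32 to 1.62, beside a median of 0.01 over all genes tested and 0.15 over the genes of at most 500 bases. For 5 of the 9 the libraries of the lines did not overlap, a pattern seen with KOPTK1 higher in 20.6% of all genes tested and in 11.9% of those of at most 500 bases. The count was 9 of 9 without the KOPTK1 libraries headed 1, 2 and 3, where 33.5% of genes were called higher in KOPTK1, and 5 of 9 without those headed 4, 5 and 6, where 25.3% were. It was 9 of 9 with levels divided by the median level of the genes tested, where 26.6% were, and 3 of 3 at a minimum of 10 RPKM, which RNU11, RN7SK and RMRP reached and where 36.5% were. The log2 differences of the 9 RNAs ranged from 0.49 to 1.93 without the KOPTK1 libraries headed 1, 2 and 3 and from 0.12 to 1.24 without those headed 4, 5 and 6, and none changed sign. The count was 6 of 9 without the HPB-ALL libraries headed 7, 8 and 9, where 26.7% of genes were called higher in KOPTK1, and 9 of 9 without those headed 10, 11 and 12, where 27.8% were. The 3 RNAs not called without the libraries headed 7, 8 and 9 were RNU12 at 0.47 (adjusted p = 0.081), RNU4ATAC at 0.42 (adjusted p = 0.10) and RMRP at 0.27 (adjusted p = 0.074).

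**Figure D2:**
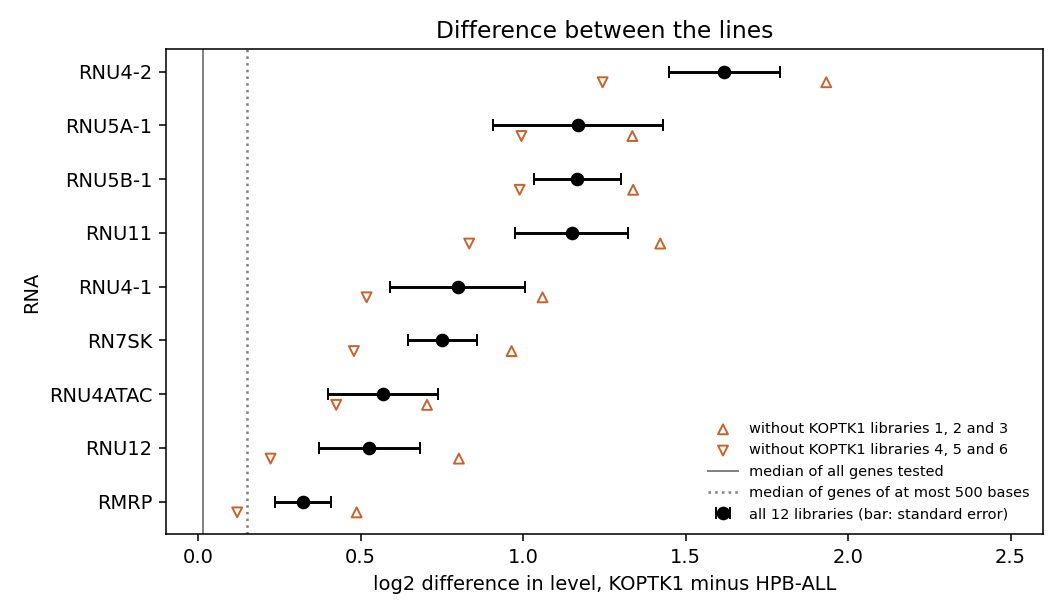
Log2 difference in level between the lines (KOPTK1 minus HPB-ALL) for the 9 RNAs tested, as black points with bars of 1 standard error. Open triangles give the fit without 3 of the KOPTK1 libraries, and grey lines the median of all genes tested (0.01) and of genes of at most 500 bases (0.15). RNU4-2 is farthest to the right at 1.62 and RMRP nearest to the background at 0.32.

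Among the RNAs of the major tri-snRNP, RNU4-2 differed most between the lines. Its level was 7.61 RPKM in the lowest, 9.18 in the median and 9.74 in the highest HPB-ALL library, and 19.4, 27.1 and 37 RPKM in KOPTK1. The HPB-ALL libraries were tightly grouped, and all KOPTK1 libraries lay above them. The fitted difference was 1.62 ± 0.17 (log2, SE; 3.07-fold, adjusted p = 3.5e-06), and it was 1.24 without the KOPTK1 libraries headed 4, 5 and 6 and 1.93 without those headed 1, 2 and 3.

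RNU4-1 encodes the same RNA but for the 4 bases shown above. It was counted at 3.54, 5.23 and 7.25 RPKM in the lowest, median and highest HPB-ALL library and at 6.12, 9.42 and 11.8 RPKM in KOPTK1, which is 21 to 43 counts per library over both lines. The lines overlapped. The fitted log2 difference was 0.80 ± 0.21 (1.74-fold, adjusted p = 0.0038), and without the KOPTK1 libraries headed 4, 5 and 6 it was 0.52 (adjusted p = 0.072) and not called. It was 1.06 and called without those headed 1, 2 and 3.

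The share of the copies differed between the lines. RNU4-2 was above RNU4-1 in 6 of 6 libraries of each line, by 1.26 to 2.71 times in HPB-ALL (median 1.73) and by 2.30 to 3.46 times in KOPTK1 (median 3.15). The log2 ratio was 0.76 higher in KOPTK1 (two-sided exact permutation test, p = 0.0087, adjusted p = 0.014 over the 5 pairs of RNAs compared here). It was 0.70 higher, with an adjusted p of 0.12 by the same exact test, without the KOPTK1 libraries headed 4, 5 and 6, and 0.83 higher, with an adjusted p of 0.040, without those headed 1, 2 and 3. It was 0.98 higher (adjusted p = 0.040, exact test) without the HPB-ALL libraries headed 7, 8 and 9 and 0.55 higher (adjusted p = 0.16, exact test) without those headed 10, 11 and 12.

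Both U5 copies were higher in KOPTK1 by a similar amount. RNU5B-1 lay at 5.03, 5.89 and 6.76 RPKM (lowest, median, highest) in HPB-ALL and at 10.2, 14.0 and 15 RPKM in KOPTK1, with a log2 difference of 1.17 ± 0.13 (adjusted p = 6.5e-06). RNU5A-1 was more scattered in HPB-ALL, at 2.49, 4.48 and 8.19 RPKM from 11 to 40 counts, and lay at 8.68, 10.2 and 15 RPKM in KOPTK1, with a log2 difference of 1.17 ± 0.26 (adjusted p = 0.0014). The libraries of the lines did not overlap for either copy, and both stayed called, at 0.99 without the KOPTK1 libraries headed 4, 5 and 6 and at 1.34 without those headed 1, 2 and 3. The ratio of RNU5B-1 to RNU5A-1 crossed 1 in HPB-ALL (0.725 to 2.27) and ran from 1.0 to 1.5 in KOPTK1, and a difference in this ratio was not detected (log2 difference -0.14, two-sided exact permutation test, p = 0.63, adjusted p = 0.69).

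In the minor spliceosome, U11 differed more between the lines than U12 by the rows kept here. U11 and U12 form a di-snRNP that recognizes both ends of the intron, U11 at the 5′ splice site and U12 at the branch point. RNU11 was at 7.19, 12.2 and 14.2 RPKM in the lowest, median and highest HPB-ALL library and at 18.9, 26.1 and 31.4 RPKM in KOPTK1, with no overlap and a log2 difference of 1.15 ± 0.17 (2.22-fold, adjusted p = 6.8e-05). It was 0.83 without the KOPTK1 libraries headed 4, 5 and 6 and 1.42 without those headed 1, 2 and 3.

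RNU12 was at 7.86, 9.34 and 9.98 RPKM in HPB-ALL and at 9.40, 13.6 and 17.5 RPKM in KOPTK1. The lowest KOPTK1 libraries fell inside the HPB-ALL range, and the log2 difference was 0.53 ± 0.15 (adjusted p = 0.0082). Without the KOPTK1 libraries headed 4, 5 and 6 it was 0.22 (adjusted p = 0.23) and not called, and without those headed 1, 2 and 3 it was 0.80 (adjusted p = 6.0e-05). A longer row of 664 bases starts at the same base and contains RNU12. This row, whose transcript gave the U12 sequence above, can be read as another entry of the same gene. It was not kept because it carried no symbol and its end lay outside the rule for position. Its medians were 2.83 CPM in HPB-ALL and 5.52 CPM in KOPTK1, beside 1.40 and 2.04 CPM for RNU12 itself. The comparison of U11 with U12 used the row of 150 bases alone. Whether U11 also differed more than the longer row was not tested.

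The ratio of RNU11 to RNU12 was 0.80 to 1.54 in HPB-ALL (median 1.36) and 1.7 to 2.2 in KOPTK1 (median 1.93), with no overlap. Its log2 difference was 0.66 (two-sided exact permutation test, p = 0.0022, the smallest that 6 against 6 libraries can give, adjusted p = 0.0054). The difference was 0.66 without the KOPTK1 libraries headed 1, 2 and 3 and 0.67 without those headed 4, 5 and 6, where the adjusted p of the exact test was 0.040 and 0.060. It was 0.60 and 0.72 without the HPB-ALL libraries headed 7, 8 and 9 and without those headed 10, 11 and 12, with the same adjusted p-values.

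U4atac pairs with U6atac as U4 does with U6. RNU4ATAC was at 6.93, 9.50 and 12.2 RPKM in HPB-ALL and at 11.1, 13.8 and 20.8 RPKM in KOPTK1, with overlapping libraries and a log2 difference of 0.57 ± 0.17 (adjusted p = 0.0090). It was 0.42 (adjusted p = 0.066) and not called without the KOPTK1 libraries headed 4, 5 and 6, and 0.70 and called without those headed 1, 2 and 3. CLASP1, which spans the gene on the other strand, stood at a median of 170 CPM in HPB-ALL and 175 CPM in KOPTK1, and the strand setting of the counting is not given in the sources used here, so reads of unspliced CLASP1 and of RNU4ATAC cannot be told apart. CLASP1-AS1, a row of 682 bases whose span includes RNU4ATAC on its own strand, stood at 2.70 and 2.81 CPM. The 127 bases of RNU4ATAC stood at 1.21 and 1.75 CPM, and these values are not per length. Reads of CLASP1-AS1 cannot be told apart from those of RNU4ATAC where they overlap. A difference in the ratio of RNU12 to RNU4ATAC was not detected (log2 difference -0.07, two-sided exact permutation test, p = 0.69, adjusted p = 0.69).

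RNU6ATAC was hardly counted. It had 0 counts in 5 of 6 HPB-ALL libraries and 2 counts in the other, and 0, 0, 0, 1, 5 and 5 counts in the KOPTK1 libraries. A count of 0 allows up to 0.0815 CPM in the shallowest HPB-ALL library and up to 0.131 CPM in the shallowest KOPTK1 library (3 counts, counting error only), so no fold between the lines is given.

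RN7SK, the scaffold that holds HEXIM proteins and P-TEFb, had the deepest counts, from 5577 to 7407 per library. Its level was 393, 465 and 471 RPKM (lowest, median, highest) in HPB-ALL and 615, 726 and 917 RPKM in KOPTK1. All KOPTK1 libraries lay above all HPB-ALL libraries, and the log2 difference was 0.75 ± 0.11 (1.68-fold, adjusted p = 3.9e-05). It was 0.48 without the KOPTK1 libraries headed 4, 5 and 6 and 0.96 without those headed 1, 2 and 3.

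RMRP had the smallest difference of the 9. It was at 145, 162 and 172 RPKM in HPB-ALL and at 166, 195 and 240 RPKM in KOPTK1, with overlapping libraries and a log2 difference of 0.32 ± 0.09 (1.25-fold, adjusted p = 0.0050). Leaving out the KOPTK1 libraries headed 4, 5 and 6 gave 0.12 (adjusted p = 0.064), which was not called, and leaving out those headed 1, 2 and 3 gave 0.49, which was.

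The ratio of RN7SK to RMRP moved little within a line. It was 2.71 to 2.90 in HPB-ALL and 3.45 to 3.96 in KOPTK1, 0.42 higher in KOPTK1 on the log2 scale (two-sided exact permutation test, p = 0.0022, adjusted p = 0.0054). Without the KOPTK1 libraries headed 4, 5 and 6 the difference was 0.36 with an adjusted p of 0.060 by the exact test, where 0.024 before adjustment was the smallest value that 3 against 6 libraries can give. It was 0.48 without those headed 1, 2 and 3, with an adjusted p of 0.040 by the exact test. It was 0.42 without either set of HPB-ALL libraries, with an adjusted p of 0.040 (exact test) without those headed 7, 8 and 9 and 0.060 (exact test) without those headed 10, 11 and 12.

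**Figure D3:**
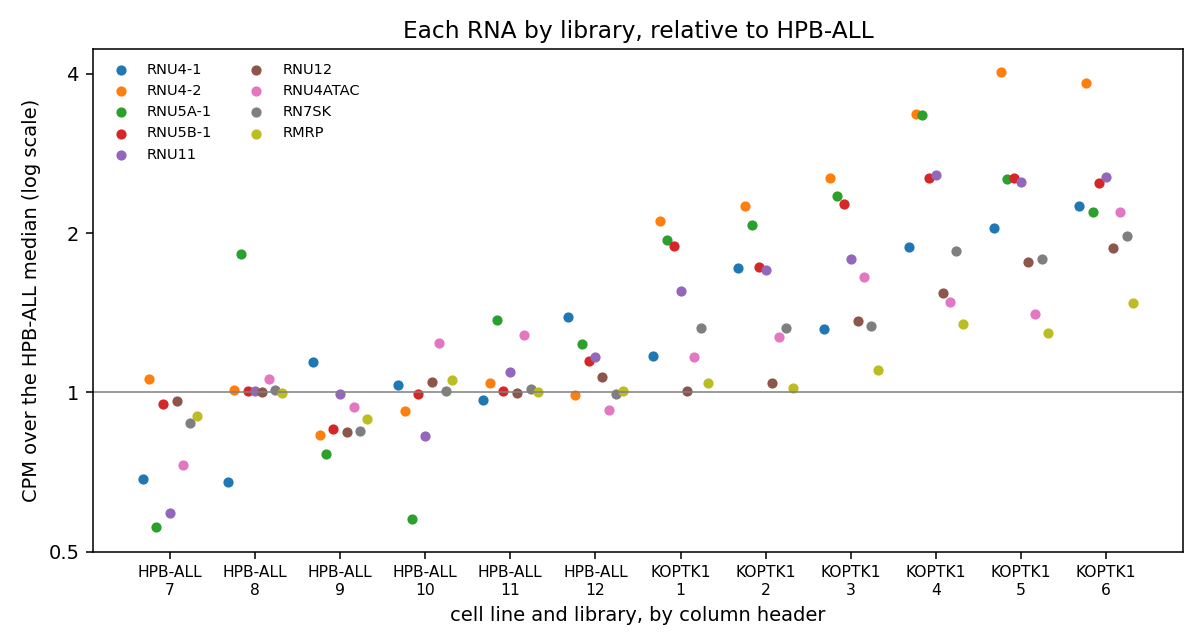
Level (CPM, log scale) of the 9 RNAs in each library divided by the median of the 6 HPB-ALL libraries for that RNA, so that the grey line at 1 is the HPB-ALL median. The KOPTK1 points lie at or above 1 for every RNA shown, and those of RNU4-2 reach the highest values, while RMRP and RNU12 lie near 1 in some KOPTK1 libraries.

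Apart from those of U6atac, most rows annotated as pseudogenes of these RNAs lay far below the genes, and a few reached or passed them. Of 86 rows named as U4 pseudogenes, 57 had counts in HPB-ALL, and 5 had a median level at or above that of RNU4-1 there, the highest being RNU4-21P at 14.1 RPKM, while the median of the 86 rows was 0.0215 RPKM. RNU4-2 was reached by 3 of the 86 in HPB-ALL and by none in KOPTK1, where 3 reached RNU4-1. Of 25 U5 pseudogene rows, 3 reached RNU5A-1 in HPB-ALL and none did in KOPTK1, and none reached RNU5B-1 in either line.

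U4atac and U6atac had pseudogene rows above them in both lines. RNU4ATAC11P stood at 15.1 RPKM in HPB-ALL and 23.6 RPKM in KOPTK1, above RNU4ATAC in both lines, and 4 of 17 pseudogene rows in HPB-ALL and 3 of 17 in KOPTK1 reached RNU4ATAC. RNU6ATAC16P stood at 10.5 and 12.1 RPKM, where RNU6ATAC itself had medians of 0 and 0.117 RPKM. Of 41 pseudogene rows of U6atac, all 41 were at or above RNU6ATAC in HPB-ALL, where a row at 0 also counts, and 16 were in KOPTK1. The longest identical run was 20 bases between RNU4ATAC and RNU4ATAC11P and 20 bases between RNU6ATAC and RNU6ATAC16P. By contrast, none of 286 pseudogene rows of 7SK reached RN7SK, the highest being RN7SKP240 at 13.9 RPKM in HPB-ALL and 28.6 RPKM in KOPTK1. None of 4 U11 pseudogene rows and not the single U12 one reached its gene. These pseudogenes were named after their values were seen, as the highest of each family.

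Among other small RNAs, the U1, U2 and U5 copies and 1 of 3 U6 copies tested were higher in KOPTK1. Of 30 listed, 23 had a row with their symbol, 14 reached the minimum in both lines, and 9 of these 14 were called higher in KOPTK1 and none higher in HPB-ALL, with a median log2 difference of 0.83, beside 31.6% of all genes and 26.7% of genes of at most 500 bases called higher in KOPTK1. The count was 7 without the KOPTK1 libraries headed 4, 5 and 6, where 25.3% of genes were called, 10 without those headed 1, 2 and 3, where 33.5% were, and 8 without either set of HPB-ALL libraries. RNU1-3, a copy of U1, which recognizes the 5′ splice site of major introns, had the highest level at 32.7 RPKM in HPB-ALL and 72.9 RPKM in KOPTK1 (log2 difference 1.16 ± 0.14, adjusted p = 8.4e-06). RNU1-1, another U1 copy, had the largest difference at 1.71 ± 0.15 (adjusted p = 8.5e-07). VTRNA1-1, a vault RNA, had the lowest level at 1.85 and 1.32 RPKM, with a log2 difference of -0.44 ± 0.35 (adjusted p = 0.29). The other 4 that were not called were RNU6-2, RNU6-8, RNU7-1 and TERC, with log2 differences of -0.09, 0.44, 0.05 and 0.09.

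Nearest to the median difference of the 9 RNAs, by the distance in log2 difference over the 12 libraries, were RNU1-4 at 0.77, the U5 variant RNU5D-1 at 0.71 and the U5 variant RNU5F-1 at 0.90. RNU5D-1 had medians of 17.0 RPKM in HPB-ALL and 29.0 RPKM in KOPTK1, above both RNU5A-1 and RNU5B-1. RNU5F-1 had medians of 10.9 and 19.1 RPKM. RNU1-4 was counted 5 to 15 times per library.

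For the proteins that work with these RNAs, the counts of each list are set beside the 31.6% of all genes tested that were called higher in KOPTK1 and the 32% called higher in HPB-ALL. In the fits without 1 of the 4 sets of 3 libraries these shares were 25.3 to 33.5% and 25.8 to 35% (26.5% and 35% higher in HPB-ALL without the KOPTK1 libraries headed 4, 5 and 6 and without those headed 1, 2 and 3, and 25.8% and 27.4% without the HPB-ALL libraries headed 7, 8 and 9 and without those headed 10, 11 and 12). Of 17 tri-snRNP proteins, all tested, 15 were higher in HPB-ALL and none in KOPTK1, with a median log2 difference of -0.22, and 12 to 15 were higher in HPB-ALL, and none in KOPTK1, without 1 of the sets. PRPF8, the core scaffold of U5 snRNP, had the highest level at 126 RPKM in HPB-ALL and 88.2 RPKM in KOPTK1 (log2 difference -0.51 ± 0.08, adjusted p = 8.1e-05). USP39, needed to form the tri-snRNP, differed most at -0.56 ± 0.08 (adjusted p = 6.4e-05). PRPF6, which bridges U5 and U4/U6, was at 50.3 and 51.2 RPKM (0.04 ± 0.03, adjusted p = 0.28), and TXNL4A, a small U5 protein, was lowest at 20.4 and 16.0 RPKM.

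Proteins of the U11/U12 di-snRNP and minor spliceosome had 6 of 14 higher in KOPTK1, 6 higher in HPB-ALL and a median of 0.00, near the even split of all genes (31.6% and 32%). SNRNP25 and SNRNP35, both U11 proteins, lay at opposite ends, at -0.60 ± 0.09 (adjusted p = 4.9e-05) and 0.47 ± 0.09 (adjusted p = 0.00043). YBX1, an abundant nucleic acid binding protein, was highest at 375 and 403 RPKM. Dividing by the median level of the genes left 4 higher in KOPTK1 and 6 higher in HPB-ALL, where 26.6% and 37.1% of all genes were. Leaving out the KOPTK1 libraries headed 4, 5 and 6 left 5 and 3, leaving out the HPB-ALL libraries headed 7, 8 and 9 left 6 and 3, and leaving out those headed 10, 11 and 12 left 5 and 4.

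Of 15 Sm and LSm proteins, which form rings around the snRNAs and the end of U6, 3 were higher in KOPTK1 and 8 in HPB-ALL (31.6% and 32% of all genes), with a median of -0.10. Without 1 of the sets these counts were 3 and 6 to 8. SNRPB was highest at 124 and 138 RPKM (0.17 ± 0.04, adjusted p = 0.0020). SNRPD3 had the lowest difference at -0.44 ± 0.07 (adjusted p = 0.00015). LSM8, the subunit that distinguishes the nuclear LSm ring, had the highest at 0.45 ± 0.06 (adjusted p = 2.5e-05), and LSM6 had the lowest level at 9.60 and 12.3 RPKM.

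For the synthesis of snRNAs, 28 of 29 listed factors were tested, and ELL2 was below the minimum. Of these 28, 10 were higher in KOPTK1 and 9 in HPB-ALL, shares near those of all genes (31.6% and 32%), with a median of -0.01. The count higher in KOPTK1 was 6 without the HPB-ALL libraries headed 10, 11 and 12 and 10 without any other set, and that higher in HPB-ALL was 6 without those headed 7, 8 and 9. The Integrator subunits, which cut the ends of nascent snRNAs, lay at both ends, with INTS1 at -0.73 ± 0.10 (adjusted p = 2.5e-05) and INTS8 at 0.47 ± 0.05 (adjusted p = 7.8e-06). INTS13 was highest at 48.2 and 32.9 RPKM. BRF2, which starts RNA polymerase III at promoters such as that of RN7SK, was lowest at 6.51 and 6.14 RPKM (-0.07 ± 0.05, adjusted p = 0.16).

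Of 24 factors of snRNA export, capping, SMN assembly and end maturation, 6 were higher in KOPTK1 and 15 in HPB-ALL (31.6% and 32% of all genes), with a median of -0.19. Without 1 of the sets these counts were 5 to 6 and 13 to 16. PRMT5, which methylates Sm proteins before assembly, was lowest at -0.75 ± 0.13 (adjusted p = 0.00017). SMN2, whose reads cannot be cleanly separated from its near-identical copy SMN1, was highest at 1.05 ± 0.10 (adjusted p = 1.3e-06). The export receptor XPO1 had the highest level at 75.2 and 75.6 RPKM (0.02 ± 0.03, adjusted p = 0.69), and GEMIN6, a subunit of the SMN complex, had the lowest at 2.66 and 3.59 RPKM (0.44 ± 0.07, adjusted p = 0.00014).

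Of the 7 genes of the 7SK particle and P-TEFb, 3 were higher in KOPTK1 and 2 in HPB-ALL (31.6% and 32% of all genes), with a median of 0.17. The median was 0.27, with counts of 4 and 2, without the KOPTK1 libraries headed 1, 2 and 3 and 0.04, with counts of 2 and 2, without those headed 4, 5 and 6. It was 0.21, with counts of 2 and 2, without the HPB-ALL libraries headed 7, 8 and 9. LARP7, which binds the end of 7SK and keeps it stable, was at 12.7 RPKM in HPB-ALL and 25.8 RPKM in KOPTK1 (1.03 ± 0.09, adjusted p = 5.2e-07). MEPCE, which caps 7SK, was at 28.8 and 33.4 RPKM (0.22 ± 0.07, adjusted p = 0.0096). CDK9, the kinase of P-TEFb, was at 29.4 and 24.5 RPKM (-0.25 ± 0.04, adjusted p = 6.5e-05). HEXIM2, an inhibitor of P-TEFb, was lowest at 4.1 and 4.6 RPKM (0.17 ± 0.08, adjusted p = 0.077).

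Of the 11 proteins of RNase MRP and RNase P, none was higher in KOPTK1 and 7 were higher in HPB-ALL (31.6% and 32% of all genes), with a median of -0.17. These counts were 1 and 5 without the KOPTK1 libraries headed 4, 5 and 6, where 25.3% and 26.5% of all genes were called, and none and 4 without the HPB-ALL libraries headed 7, 8 and 9, where 26.7% and 25.8% were. RPP40 had the lowest difference at -0.65 ± 0.11 (adjusted p = 0.00012). POP7 was highest at 35.1 and 37.1 RPKM (0.09 ± 0.04, adjusted p = 0.092), and RPP25 lowest at 1.25 and 1.40 RPKM (0.17 ± 0.08, adjusted p = 0.090).

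SHQ1, the target of the shRNA, was at 46.4 to 71.8 RPKM in HPB-ALL and 39.3 to 46.4 RPKM in KOPTK1, with a log2 difference between the lines of -0.45 ± 0.12 (adjusted p = 0.0041). The HPB-ALL libraries headed 7, 8 and 9 were at 213 to 217 CPM and those headed 10, 11 and 12 at 140 to 149 CPM. The difference was -0.12 (adjusted p = 0.076) and not called without those headed 7, 8 and 9, and -0.71 without those headed 10, 11 and 12. It was -0.54 without the KOPTK1 libraries headed 1, 2 and 3 and -0.38 without those headed 4, 5 and 6. Since no library could be given to an shRNA group, these values are no check of the knockdown.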

How the data were processed

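RNA-Seq of 12 libraries from HPB-ALL and KOPTK1 cells was analysed from 1 table per line of 58288 genes. Per the submitters' processing notes, Trimmomatic 0.36, STAR 2.5.4b, Picard 2.18.7, featureCounts 1.6.2 and edgeR 3.22.3 were used, with build hg38. Their settings, and how reads with several matches were split, are not given in the sources used here. The deposited tables are named for RPKM, but their 12 per-library columns hold estimated counts: they sum to 22884785 to 42842791 per library, and 16.2% of the values were not whole (95 of 120 for the RNAs described were whole). The authors also deposited an average log2 CPM per line, used here only to choose 1 row per gene, and a log2 fold change, F statistic, p-value and FDR of their own comparison, which were not used. No per-library column was left out. Symbols were found for 70.3% of the rows.

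Columns could be given to a line only, so the planned comparison of SHQ1 shRNA with control shRNA was not made. The 30 pairs of libraries within a line all differed by more than counting error (chi-square over its degrees of freedom, 1.75 to 21.4). CPM and RPKM were computed from the column totals. The lines were compared on rounded counts with the quasi-likelihood test of edgeR 4.0.16 in R 4.3.3, with TMM factors and line as the only term, over 21455 genes whose mean RPKM reached 1 in each line. The Benjamini-Hochberg adjustment ran over these genes, a gene was called at an adjusted p under 0.05, and standard errors were derived from the log2 difference and F. The ratios of 5 pairs of RNAs were compared with exact permutation tests over libraries. Neither these tests nor the choice of pairs was in the plan. Steps after the counts used Python 3.11.15. The fit was also run on simulated counts, with dispersion taken from the HPB-ALL libraries alone. The spread between the sets of KOPTK1 libraries was therefore not covered by it.

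The RNAs and gene lists were chosen with earlier results of these data known. Named were the 10 RNAs, SHQ1, from each list the genes of highest and lowest level and of largest and smallest ratio between the lines, and the 3 other small RNAs nearest to the median difference. Exceptions are stated where they occur. Sequences were taken from GENCODE release 44 transcripts on GRCh37, by transcript, with those of U5 not reported here, and coordinates from the tables (GRCh38). Floors cover counting error only. Alternatives were DESeq2 1.42.0, other filters and scalings, summed rows, and fits without single libraries or sets of 3 libraries of a line.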

Additional observations from a re-analysis of the deposited data

Results flagged for a closer look

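RNU6ATAC in HPB-ALL was set apart by its library 12, at 0.0475 CPM from 2 counts, where the other 5 libraries had 0 counts. The gap to the others was the whole range of the group. Of 22 groups of 6 libraries examined (the 10 RNAs and SHQ1 in each line) this was the 1 that stood out in this way. Where only 1 library has counts, the gap is always the whole range. The usual chance rate of about 1 in 20 does not apply to such counts, and nothing is read from this flag.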

How the results depend on the processing

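No paired analysis was possible because the columns carry numbers that match no replicate of the labels. For the same reason the alternatives planned for SHQ1 shRNA against control shRNA (normalization, pseudocount, filter, replicate block and libraries left out) were not run in either line. Under the 23 alternatives to the comparison of the lines, none of the 9 RNAs changed direction where it was tested. The count called higher in KOPTK1 was 9 of 9 with any single library left out (9 to 9), 5 of 9 without the KOPTK1 libraries headed 4, 5 and 6, 6 of 9 without the HPB-ALL libraries headed 7, 8 and 9, and 3 of 3 at a minimum mean RPKM of 10, where fewer genes were tested and 5627 were called in either direction, beside 13662 in the reported comparison. With single libraries left out the genes called ranged from 12787 to 13921. Summing the nearly identical rows of a symbol gave medians of 3.23 CPM for RNU11, 307.8 CPM for RN7SK and 87.1 CPM for RMRP in HPB-ALL. In KOPTK1 these were 6.97, 480.5 and 104.4 CPM. Such a sum counts the same reads again if each row counted them in full, but not if they were shared between the rows. Which of these applies is not given in the sources used here. Per gene instead of per length, 9 of the 20 places in the order of levels changed. The fits without 3 libraries of a line, single libraries or the filter, and those with library totals alone, filterByExpr or DESeq2, were added after the data were seen. Counts of 11 to 63 per library limit what can be seen for the spliceosomal RNAs other than RNU11 and RNU6ATAC in HPB-ALL.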

Other observations

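RN7SK stood at 204, 204 and 205 CPM in the KOPTK1 libraries headed 1, 2 and 3 and at 285, 275 and 303 CPM in those headed 4, 5 and 6. RNU4-2 stood at 2.73, 2.92 and 3.30 CPM and at 4.36, 5.22 and 4.98 CPM in the same libraries. RNU11 stood at 2.53, 2.77 and 2.91 CPM and at 4.2, 4.08 and 4.15 CPM. RMRP stood at 45.4, 44.4 and 48.1 CPM and at 58.7, 56.3 and 64.3 CPM. The sets overlapped for RNU5A-1, at 1.01, 1.08 and 1.22 CPM and at 1.73, 1.31 and 1.14 CPM. They also overlapped for RNU4ATAC, at 1.41, 1.53 and 1.99 CPM and at 1.79, 1.70 and 2.64 CPM. They did not for RNU4-1, RNU5B-1 and RNU12. The share of all genes with such a step was not computed. Before division by library totals, the counts of the sets overlapped for all of these RNAs. RN7SK was at 6907.5 to 7407.33 counts in the libraries headed 1, 2 and 3 and at 6945.5 to 7402.5 in the others. RMRP was at 1504 to 1736 and at 1457.5 to 1522.5 counts. The library totals were 33905452 to 36098045 and 22884785 to 25938761 counts. The part of depth in the steps in CPM was not tested. SHQ1 stood at 138, 134 and 141 CPM and at 127, 127 and 119 CPM.

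In the HPB-ALL libraries headed 7, 8 and 9, SHQ1 stood at 213, 217 and 215 CPM, and in those headed 10, 11 and 12 at 144, 140 and 149 CPM. RN7SK in these libraries stood at 135, 155 and 130 CPM and at 155, 156 and 153 CPM. RMRP stood at 39.3, 43.3 and 38.8 CPM and at 46, 43.7 and 43.8 CPM. The labels put none of these libraries in an shRNA group, and no test was made between them.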
